A study of Mus musculus with 4 samples.

Results

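The 8 genes described here are the 4 POU class 3 factors Pou3f1, Pou3f2, Pou3f3 and Pou3f4 and the 4 Iroquois factors Irx1, Irx2, Irx3 and Irx5. They were taken by name from the 32285 genes of the count matrices, and all 8 are present. They were read in single cells sorted by FACS for the red reporter tdTomato (tdT) from the mouse embryonic cerebellum at E14.5. Control embryos carried Atoh1-Cre/+ and R26LSL-tdT/+. The En1/2 conditional knockout (CKO) embryos carried the same driver and reporter together with En1lox/lox and En2lox/lox. Atoh1-Cre acts in the lineage of the rhombic lip gene Atoh1, so every library has the recombinase, and no group without Cre was analysed here. There were 2 libraries in each group, and the animals of a library were pooled before sorting. The 2 libraries of a group therefore measure the spread between pools, and nothing in the labels says whether they came from separate litters. The question the design poses for these genes is whether loss of the Engrailed factors En1 and En2 in the Atoh1 lineage changes their levels.

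POU class 3 proteins bind DNA through a paired POU-specific domain and homeodomain, often together with SOX factors, and act in the specification and maturation of neurons. Iroquois proteins are homeodomain factors of the TALE class that pattern territories of the neural tube. The Atoh1 lineage of the cerebellum gives rise first to the excitatory neurons of the cerebellar nuclei, which express Meis factors, and then to granule cell precursors, which express Pax6. Tbr1 and Lmx1a mark excitatory neurons of the medial nucleus, and Lmx1a and Eomes also mark unipolar brush cells.

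Positions are those of GENCODE M21 on GRCm38, the assembly also called mm10, which is the build named in the submitters' processing notes. Pou3f1 lies at chr4:124656807-124660655 on the plus strand, Pou3f2 at chr4:22482780-22488366 on the minus strand, Pou3f3 at chr1:42695768-42703176 on the plus strand and Pou3f4 at chrX:110814280-110817207 on the plus strand. The Iroquois genes lie in pairs. Irx1 (chr13:71957921-71963723, minus strand) and Irx2 (chr13:72628820-72634198, plus strand) are 665 kb apart, and Irx3 (chr8:91798525-91802067, minus strand) and Irx5 (chr8:92357625-92376286, plus strand) are 556 kb apart. All 8 are protein-coding genes. Over the last 500 bases of their transcripts, where 3′ tags fall, the longest run of identical bases between any pair was 14, so reads of one member are unlikely to be shared with another.

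The 250 bases before the RefSeq start site (GRCm38.p6) are shown for 3 members whose region abuts the annotated gene. Those of Pou3f3 and Irx2 lie in the short gap to a divergent non-coding transcript that is described with the neighbours, and that of Pou3f2 belongs to the member with the most molecules in nuclei-side cells. The Pou3f3 region also lies within AC122898.1, a transcript annotated on the same strand as Pou3f3. Capitals mark the letters CCAAT, searched on both strands. The regions are chr4:22488367-22488616 (minus strand), chr1:42695518-42695767 (plus strand) and chr13:72628570-72628819 (plus strand), in the order printed.
Pou3f2: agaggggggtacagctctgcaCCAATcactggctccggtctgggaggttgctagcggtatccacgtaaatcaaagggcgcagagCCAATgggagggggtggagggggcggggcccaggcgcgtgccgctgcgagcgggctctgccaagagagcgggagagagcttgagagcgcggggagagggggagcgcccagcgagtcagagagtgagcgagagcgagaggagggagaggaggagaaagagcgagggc
Pou3f3: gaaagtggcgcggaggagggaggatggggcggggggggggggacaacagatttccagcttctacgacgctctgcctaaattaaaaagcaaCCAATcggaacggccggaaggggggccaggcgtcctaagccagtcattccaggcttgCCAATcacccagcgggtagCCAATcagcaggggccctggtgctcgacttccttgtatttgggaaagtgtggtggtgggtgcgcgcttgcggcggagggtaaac
Irx2: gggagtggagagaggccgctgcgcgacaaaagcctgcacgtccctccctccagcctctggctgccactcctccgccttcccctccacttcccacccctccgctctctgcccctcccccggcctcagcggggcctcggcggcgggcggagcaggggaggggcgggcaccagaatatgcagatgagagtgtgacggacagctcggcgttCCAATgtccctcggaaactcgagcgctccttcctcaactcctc
CCAAT occurred 2 times in the Pou3f2 region, 3 times in the Pou3f3 region and 1 time in the Irx2 region. Of 32851 such regions in the RefSeq table, 33.8% held CCAAT at least once and 10.1% held it 2 or more times. The POU octamer ATGCAAAT, the homeodomain core TAATTA and the TATA box TATAAA, read on both strands, were found in none of the 3. They occur in 1.60%, 4.84% and 12.4% of all regions. The GC content of the 3 regions was 66.8%, 60.8% and 68.4%, against a median of 52.4% over all regions.

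The 4 libraries held between 14998150 and 33709450 unique molecular identifiers (UMIs, each 1 counted RNA molecule) in 4983 to 7083 barcodes. A barcode was kept if it held 500 or more genes and 1000 or more UMIs, with no more than 10% of UMIs from mitochondrial genes, which left 12546 cells. Over all kept cells, the CKO libraries were deeper per cell, with medians of 5352 and 5544 UMIs against 2734 and 2122 in the controls. Their median mitochondrial share was also lower, at 3.97% and 2.66% against 5.53% and 5.66%. Libraries shared between 1 and 6 barcodes pairwise. Of the targeted genes, En2 fell in the CKO libraries. In Meis2 > Pax6 cells it stood at 257 and 188 CPM (counts per 1000000 UMIs) in the controls and at 46.9 and 43.8 in the CKO libraries, or -2.24 on the log2 scale (SE 0.23, adjusted p = 0.0177, edgeR quasi-likelihood test). En1 stood at 562 and 462 against 347 and 743 CPM, so the groups overlapped (log2 fold change 0.12, SE 0.31, adjusted p = 0.898, edgeR). Which part of En1 is removed is not given in the sources used here, and a 3′ tag outside it does not test the deletion.

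Cells were sorted into sets by the rule given for these genes. There were 3870 Meis2 > Pax6 cells (more Meis2 than Pax6 UMIs, the side of the nuclei neurons) and 6948 Pax6 > Meis2 cells (the granule side). The 1728 tied cells, of which 1293 held neither gene, entered neither set. A margin of 1 UMI placed 936 of the former and 1270 of the latter. Depth differed by set. Median UMIs per Pax6 > Meis2 cell were 13722.5 and 9818.5 (CKO replicates 1 and 2), against 3238 and 2339 (control replicates 1 and 2). Per Meis2 > Pax6 cell they were 3110 and 2248, against 2617 and 2171.5. In CKO replicate 1 the median mitochondrial share was 2.99% on the granule side and 5.83% on the nuclei side. Except in thinned cells, the CKO sides, and the genotypes on the granule side, were thus compared at unequal depth. Another set held the 1067 cells with at least 1 UMI of Tbr1 or Lmx1a. It overlapped the others, since 478 of its cells had more Meis2, 444 more Pax6 and 145 were tied. With the genes that cut the sets left out, the summed level of 7 excitatory nuclei markers was 1605 to 2203 CPM per library in Meis2 > Pax6 cells and 739 to 1170 CPM in Pax6 > Meis2 cells. That of 9 granule markers was 1141 to 1969 CPM and 2372 to 2929 CPM, so each list was higher on its own side and present on the other. Other lists differed too. In control replicate 1, progenitor and glia markers summed to 586 CPM in Meis2 > Pax6 and 1193 CPM in Pax6 > Meis2 cells, and GABAergic markers to 152 and 63.2 CPM. The part of these in the differences between the sides was not tested. Meningeal and endothelial markers stayed at or below 7.4 CPM in sum in both sets, and erythroid markers reached 3678 CPM in the Meis2 > Pax6 cells of control replicate 2. Meis2 > Pax6 cells made up 39.9% ± 27.1 of kept control cells and 19.3% ± 13.1 of kept CKO cells (SD, n = 2 each; exact permutation test, two-sided, p = 0.667). The smallest p possible is 0.33, so this test cannot decide whether the shares differ.

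All 4 POU class 3 genes, Irx3 and Irx5 were higher in Meis2 > Pax6 cells than in Pax6 > Meis2 cells in each of the 4 libraries. Their fitted folds over the libraries lay between 1.80 and 6.08, and those of single libraries between 1.63 (Pou3f3 in control replicate 2) and 13.3 (Irx3 in CKO replicate 1). Irx1 and Irx2 stood close to the same level on both sides. Levels below are CPM, that is UMIs of the gene over all UMIs of the same cells, and are not scaled further. Each UMI is 1 tagged 3′ end, so these levels do not grow with transcript length. Fold changes come from edgeR on UMIs summed per library and cell set, with its TMM scaling and with the library as a block, and adjusted p-values are over all genes tested. In that test 7 of the 8 members were called higher at an adjusted p under 0.05, and all 7 were higher in each library. The background was large: 51.8% of 13142 genes were called, 25.4% as higher in Meis2 > Pax6 cells and 26.4% as lower, and 29.7% were higher in all 4 libraries. The median log2 fold change of the members was 1.43, against -0.0047 over all genes tested.

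Pou3f2 (Brn2), a factor of differentiating neurons, had the most UMIs of the members in Meis2 > Pax6 cells. It stood there at 456 and 393 CPM in the controls and at 589 and 445 CPM in the CKO libraries, and in Pax6 > Meis2 cells at 125, 187, 162 and 126 CPM in the same order. No library's granule-side level reached the lowest nuclei-side level. The log2 fold change was 1.59 (SE 0.12, adjusted p = 1.78e-07, edgeR). Pou3f1 (Oct6, also named SCIP), best known from myelinating glia and early neural tissue, was far lower in level but changed more between the sets. Its nuclei-side levels were 51.4 and 56.9 CPM in the controls and 74.5 and 45.0 CPM in the CKO libraries, against 7.88, 12.9, 10.3 and 8.96 CPM on the granule side. The log2 fold change was 2.47 (SE 0.13, adjusted p = 1.88e-08, edgeR).

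Pou3f3 (Brn1), which often acts beside Pou3f2, showed the smallest difference of the POU genes. It stood at 235.0, 225, 187 and 201 CPM on the nuclei side, controls first, and at 118, 138, 91.9 and 105 CPM on the granule side. The ranges did not overlap, and the levels differed by 0.85 on the log2 scale (SE 0.08, adjusted p = 2.73e-06, edgeR). Pou3f4 (Brn4), known for its role in the inner ear, stood at 80.9, 39.5, 58.8 and 45.0 CPM on the nuclei side and at 22.4, 24.0, 21.7 and 20.3 CPM on the granule side. The 4 libraries lay close together on the granule side (22.1 ± 1.52 CPM, SD, n = 4) and apart on the nuclei side (56.1 ± 18.4 CPM, SD, n = 4). On the log2 scale the sides differed by 1.26 (SE 0.14, adjusted p = 6.86e-06, edgeR).

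Among the 4 Iroquois members the size of the difference went by chromosomal pair, larger for Irx3 and Irx5 than for Irx1 and Irx2. Irx4, in the cluster of Irx1 and Irx2 but not a member, was also called higher on the nuclei side, but not in every library. The log2 fold change was 2.61 (SE 0.48, adjusted p = 0.000528, edgeR), from 1 to 30 UMIs per library there and 4 to 24 on the granule side. In control replicate 1 Irx4 was lower on the nuclei side, at 0.509 against 0.685 CPM. Irx3 stood at 37.1 and 81.6 CPM in control and at 49.1 and 20.8 CPM in CKO Meis2 > Pax6 cells, against 8.56, 18.6, 3.69 and 3.38 CPM in Pax6 > Meis2 cells, which is 2.60 on the log2 scale (SE 0.22, adjusted p = 5.42e-07, edgeR). Its partner on chromosome 8, Irx5, stood at 44.8, 83.2, 73.1 and 48.3 CPM against 17.5, 23.7, 19.1 and 14.8 CPM, or 1.66 on the log2 scale (SE 0.11, adjusted p = 1.06e-07, edgeR). For both genes control replicate 2 was the highest library on either side.

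Irx1 and Irx2, the pair on chromosome 13, were read at 57.9 to 158 CPM and 111 to 155 CPM in Meis2 > Pax6 cells and at 74.2 to 117 CPM and 80.4 to 121 CPM in Pax6 > Meis2 cells. For Irx1 the log2 fold change was 0.12 (SE 0.12, adjusted p = 0.416, edgeR), and the direction differed between libraries: CKO replicate 2 was lower on the nuclei side. Irx2 was higher on the nuclei side in all 4 libraries, but by only 0.30 on the log2 scale (SE 0.09, adjusted p = 0.0101, edgeR). That call was lost with cells thinned to 2000 UMIs (adjusted p = 0.111), without the low-count filter (0.108), without CKO replicate 1 (0.102) and without CKO replicate 2 (0.0711).

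**Figure D1:**
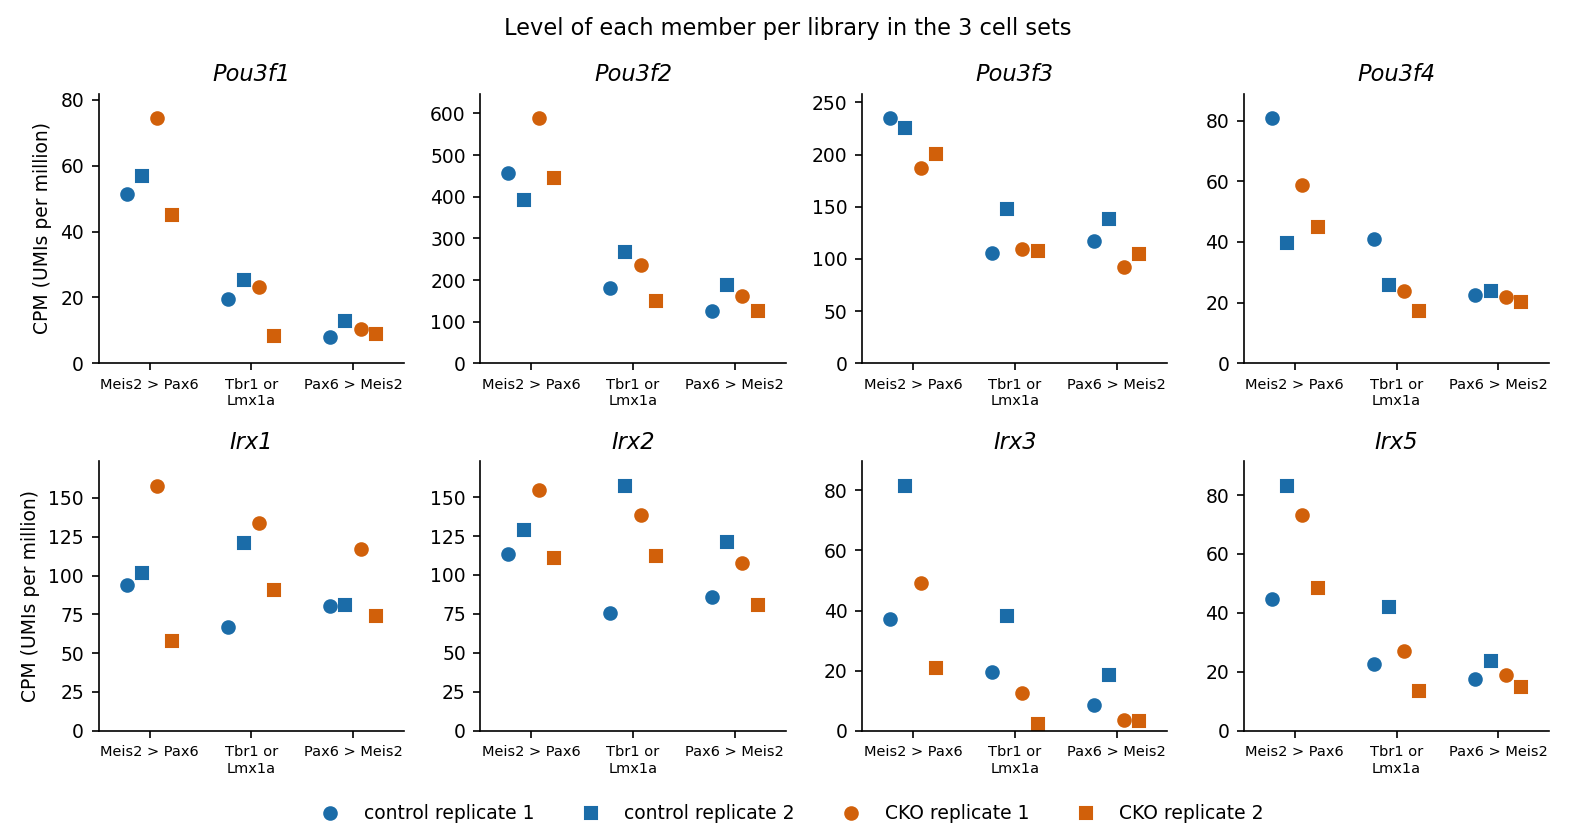
Level of each member (CPM, linear axes starting at 0 and scaled per gene) in Meis2 > Pax6, Tbr1 or Lmx1a, and Pax6 > Meis2 cells; each point is 1 library, blue for control and orange for CKO, circles for replicate 1 and squares for replicate 2. In each library the POU genes, Irx3 and Irx5 are highest in Meis2 > Pax6 cells, with Pou3f2 at 393 to 589 CPM there against 125 to 187 CPM in Pax6 > Meis2 cells, while the ranges of Irx1 and Irx2 overlap across the 3 sets.

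To put cells of different depth on 1 footing, each cell was thinned to 2000 UMIs and shallower cells were left out, which kept 423 and 1322 control and 430 and 222 CKO Meis2 > Pax6 cells. Of these, 66.6% to 74.0% per library held a UMI of at least 1 POU class 3 gene and 35.1% to 55.3% held at least 1 of the 4 Iroquois genes. In Pax6 > Meis2 cells the shares were 36.5% to 45.1% and 26.8% to 38.6%. Pou3f2 was detected in 50.8% and 46.5% of control and in 59.3% and 50% of CKO Meis2 > Pax6 cells. Its share was 21.8%, 27.4%, 26.9% and 19.0% in Pax6 > Meis2 cells. Irx3, at the other end, was detected in 5.67%, 13.5%, 8.84% and 3.60% of Meis2 > Pax6 cells and in 2.10%, 4.17%, 0.575% and 0.708% of Pax6 > Meis2 cells. For background, 15 red blood cells (at least 20% haemoglobin UMIs) were deep enough to be thinned. Of these, 2 held a Pou3f2 UMI, 2 an Irx1 UMI, 1 a Pou3f3 UMI and none a UMI of the other 5 genes. A count of 0 in 15 cells allows a share of up to 20%, so this sets only a loose limit on free RNA.

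Within the Meis2 > Pax6 cells, those with Tbr1 or Lmx1a differed from those with neither, and the 4 Iroquois members split by pair. Irx1 and Irx2 were higher and Irx3 and Irx5 lower in the 478 cells with a medial marker than in the 3392 without. The 4 POU genes were each estimated lower, but none was called. This test called 297 of 10779 genes, or 2.76%, and 4 of the 8 members. Of all genes 1.76% were called higher and 0.993% lower.

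Irx1 stood at 131 and 139 CPM in control and at 194 and 177 CPM in CKO cells with a marker, against 90.2, 95.3, 149 and 48.9 CPM in cells without. It was higher with a marker in all 4 libraries, by 0.58 on the log2 scale (SE 0.13, adjusted p = 0.00587, edgeR). Irx2 stood at 141, 166, 216 and 169 CPM with a marker and at 110, 122, 139 and 106 CPM without, also higher in all 4, by 0.53 on the log2 scale (SE 0.11, adjusted p = 0.00204, edgeR). In this comparison 8.17% of all genes were higher in all 4 libraries and 11.3% were lower in all 4.

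Irx3 went the other way, at 31.4, 51.0, 34.9 and 8.03 CPM with a marker and at 37.8, 87.1, 52.7 and 21.8 CPM without. It fell by 0.67 on the log2 scale (SE 0.18, adjusted p = 0.0264, edgeR). Irx5 stood at 31.4, 55.3, 52.9 and 8.03 CPM with a marker and at 46.2, 88.2, 78.2 and 51.4 CPM without, and fell by 0.67 (SE 0.17, adjusted p = 0.0145, edgeR). The levels with a marker rest on few molecules in 2 libraries: control replicate 1 held 6 UMIs of each gene and CKO replicate 2 held 1.

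Pou3f2 stood at 434, 320, 477 and 402 CPM in cells with a marker and at 459, 406, 617 and 448 CPM in those without, lower with a marker in each library. The POU genes had log2 fold changes of -0.47 for Pou3f1 (SE 0.19), -0.28 for Pou3f2 (SE 0.09), -0.22 for Pou3f3 (SE 0.11) and -0.45 for Pou3f4 (SE 0.18), with adjusted p-values of 0.261, 0.102, 0.469 and 0.263 (edgeR). Counting only Tbr1 cells as marked, a setting added after the data were seen, all 4 POU genes were called lower. The changes with Tbr1 cells alone were -1.07, -0.77, -0.59 and -0.96, with adjusted p-values of 0.00675, 3.74e-05, 0.0183 and 0.0344 (edgeR). At 2000 UMIs per cell, 33.3% to 57.1% of cells with Tbr1 or Lmx1a held any POU class 3 gene, against 68.4% to 78.1% of those without, and the direction was the same in the 4 libraries. Pou3f2 was also called lower in thinned cells (-0.67, adjusted p = 0.00139), without the low-count filter (-0.34, 0.0183), with doublets removed (-0.31, 0.0271) and without CKO replicate 2 (-0.30, 0.0359, edgeR). Among intact cells the estimates of Pou3f1 (0.091), Pou3f2 (0.060) and Pou3f3 (0.27) lay above 0. Irx3 was also called lower with Tbr1 alone (log2 fold change -1.02, adjusted p = 0.0163, edgeR).

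Other genes moved in the same comparison. Of 22 tested factors from a list of nuclei and rhombic lip genes, 2 were called higher with a marker and 7 lower. The higher ones were Eomes (log2 fold change 1.57), a marker of unipolar brush cells, and Neurod1 (1.03), a factor of differentiating granule neurons. Zfhx3 (-1.15), Zfhx4 (-1.02), Foxp2 (-1.38), Lhx9 (-0.58), Evx1 (-0.71), Bcl11b (-0.77) and Nr4a2 (-1.40) were lower. The 4 unipolar brush cell markers other than Lmx1a summed to 230.2, 273, 111 and 48.2 CPM in cells with a marker, controls first, and to 42.3, 55.8, 18.4 and 18.7 CPM in those without. Their part in the Iroquois differences was not tested beyond leaving out Eomes cells. With Eomes cells left out on both sides, added after the data were seen, the 4 Iroquois genes had the same directions but none was called. The log2 fold changes were 0.48, 0.30, -0.61 and -0.60 for Irx1, Irx2, Irx3 and Irx5, with adjusted p-values of 0.0991, 0.494, 0.183 and 0.108 (edgeR). All 4 were also lost among intact cells (4000 or more UMIs, mitochondrial share no higher than 5%), at 0.89, 0.63, -0.44 and -0.40 (adjusted p = 0.105, 0.383, 0.999 and 0.999, edgeR). With cells thinned to 2000 UMIs the calls of Irx1 (0.57, adjusted p = 0.124), Irx2 (0.36, 0.523) and Irx5 (-0.74, 0.206) were lost, and with Lmx1a cells alone as marked, a setting added after the data were seen, that of Irx3 (-0.69, 0.0706). All 4 calls were lost as well without control replicate 2, the library with the most such cells, at 0.66, 0.55, -0.58 and -0.71. Without CKO replicate 1 the call was kept for Irx1 and lost for Irx2 (0.45), Irx3 (-0.72) and Irx5 (-0.78).

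**Figure D2:**
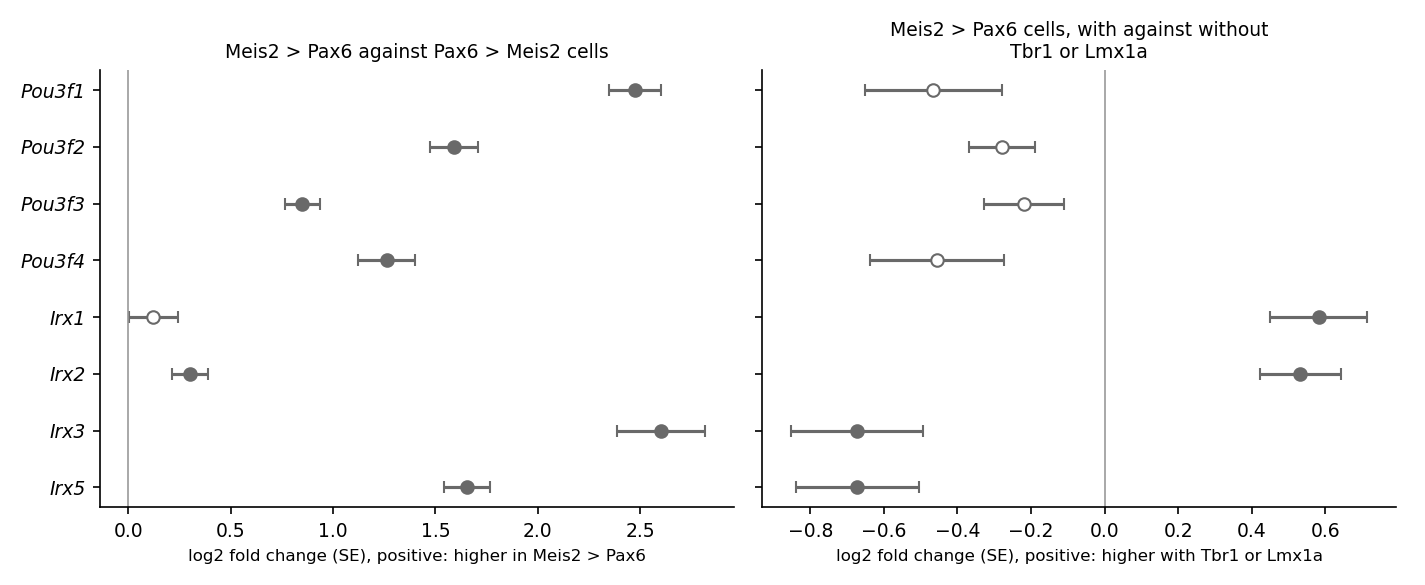
Log2 fold change of each member with its SE (edgeR, 4 libraries with the library as a block) between Meis2 > Pax6 and Pax6 > Meis2 cells (left) and between Meis2 > Pax6 cells with and without Tbr1 or Lmx1a (right); filled points have an adjusted p under 0.05. Irx3 and Irx5 lie with the POU genes in both panels, at 2.60 and 1.66 on the left and -0.67 each on the right, whereas Irx1 and Irx2 lie near 0 on the left and at 0.58 and 0.53 on the right.

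Co-detection in single cells was read for the 28 pairs of members in Meis2 > Pax6 cells thinned to 2000 UMIs. It is a description without a test, since cells of 1 library share their source. In 6 pairs the first gene was more frequent among cells with the second in all 4 libraries, and in none was it less frequent in all 4. The 6 were Irx1 with Irx2, Irx3 with Pou3f2, Irx5 with Pou3f2, Irx5 with Pou3f3, Pou3f1 with Pou3f4 and Pou3f2 with Pou3f3. Most pairs leaned the same way: 17 of the 28 were more frequent together in 3 or more libraries, and 2 less frequent. No share over pairs of other genes was read, so these counts have no background.

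Irx1 was more frequent among cells with Irx2, its neighbour on chromosome 13, than among the rest. It was found in 26.8% and 27.1% of control cells with Irx2 and in 13.6% and 13.8% of those without. In the CKO libraries it was found in 26.4% and 18.4% of cells with Irx2 and in 23.5% and 7.51% of those without. The ratio of the shares with and without Irx2 had a median of 1.97 over the 4 libraries, from 1.13 to 2.44, and CKO replicate 1 gave the lowest. The chromosome 8 pair was less even: Irx3 was found in 3.13%, 24.1%, 17.4% and 12.5% of cells with Irx5, controls first, against 5.88%, 11.7%, 7.20% and 2.91% of cells without. In control replicate 1, where 1 cell held both, the order was the reverse of that in the other 3 libraries. Across the 2 chromosomes, Irx1 was found less often in cells with Irx3 in 3 of the 4 libraries, with a median ratio of 0.556 from 0 to 1.18.

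Irx5 was more frequent with Pou3f2 and with Pou3f3 in all 4 libraries, with Pou3f4 in 3 and with Pou3f1 in 1. It was found in 9.30%, 17.2%, 18.8% and 9.01% of cells with Pou3f2 and in 5.77%, 11.5%, 12% and 5.41% of those without, a ratio between 1.504 and 1.67. For Pou3f3 the ratio lay between 1.48 and 1.88. For Irx3 with Pou3f2 it lay between 1.18 and 7.00, where the highest value, in CKO replicate 2, comes from 7 cells with both genes. The ratio of Irx5 with Pou3f2 was lower at other depths, at 1.08 with 1000 UMIs and 1.37 with 3000 UMIs per cell. Pou3f1 with Pou3f4 had a median ratio of 1.70 (1.41 to 4.04), from 24 cells with both in all libraries. Pou3f2 with Pou3f3, the pair with the most shared cells (426), had a median ratio of 1.104 (1.02 to 1.53). In Pax6 > Meis2 cells Irx1 was again more frequent with Irx2 in all 4 libraries, with a median ratio of 1.44 (1.21 to 1.77) from 182 cells with both.

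**Figure D3:**
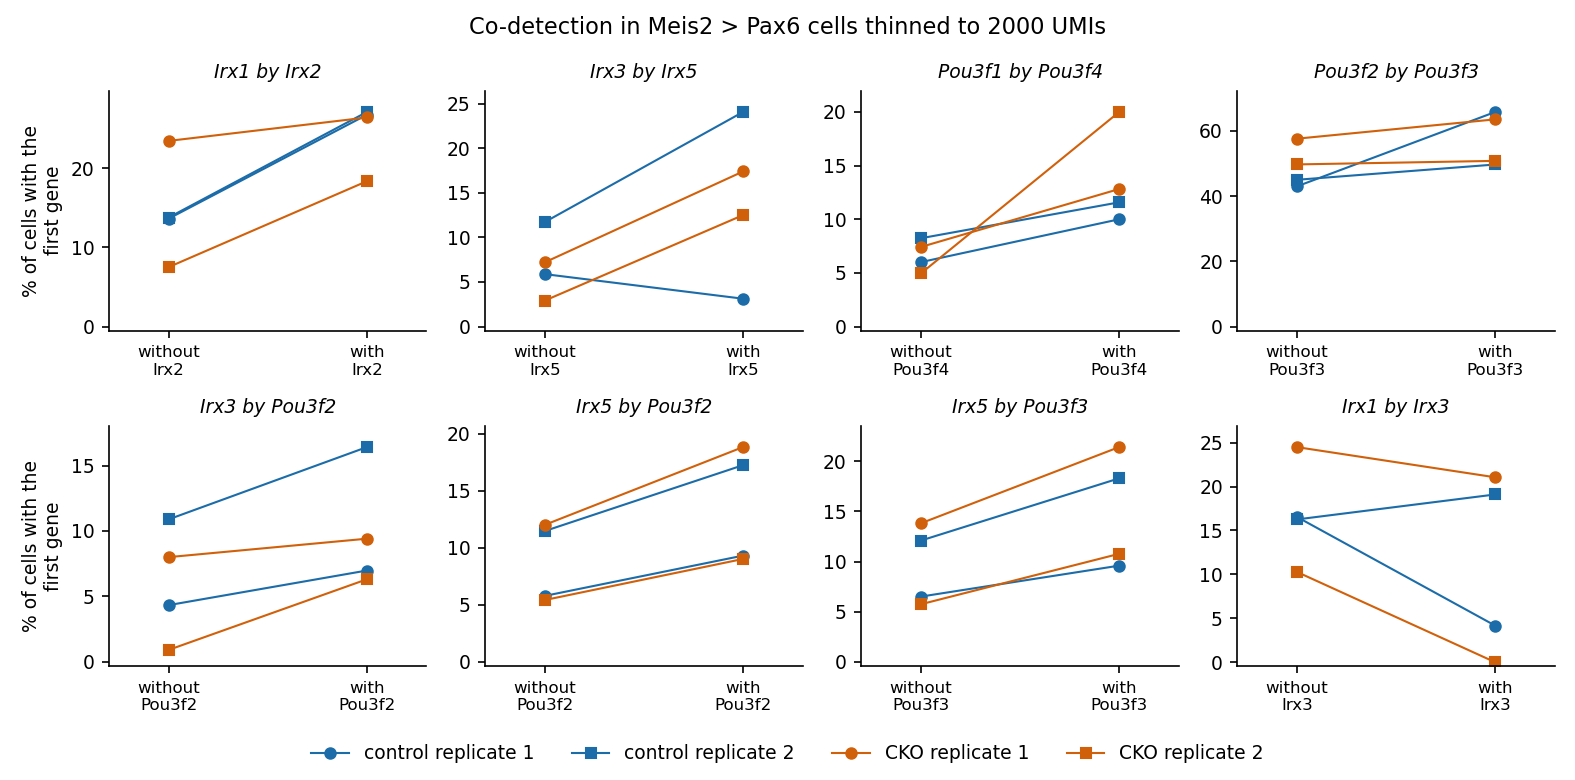
Share of Meis2 > Pax6 cells (thinned to 2000 UMIs) that held the first gene, among cells without and with the second gene; each line is 1 library, blue for control and orange for CKO, circles for replicate 1 and squares for replicate 2, and axes are scaled per panel. Lines rise in all 4 libraries for Irx1 by Irx2 and for Irx5 by Pou3f2 and Pou3f3, whereas Irx3 by Irx5 falls in control replicate 1 and Irx1 by Irx3 falls in 3 of the 4 libraries.

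Against subtype markers of the nuclei, Irx3 and Irx5 were more frequent in cells with Lhx9, a LIM homeodomain factor of rhombic lip-derived nuclei neurons, in all 4 libraries (median ratios 1.55 and 1.47). Irx3 was also more frequent with Zfhx3 (median ratio 1.92, from 1.57 to 3.78). Pou3f1 was more frequent with Atoh1, the lineage's founding factor. It was found in 13.95%, 16.5%, 19.5% and 14.3% of cells with Atoh1 and in 5.53%, 7.92%, 5.17% and 5.15% of those without. These markers are a few of the 17 read beside the 8 members, and no count over all such pairs is given here. Only 7 to 70 cells per library held Tbr1 after thinning, too few to read the rarer members: 3 of these 111 cells held Irx3, 5 Irx5, 3 Pou3f1 and 5 Pou3f4. Pou3f2 was found in 14.3%, 37.1%, 30% and 42.9% of Tbr1 cells, against 52.1%, 47.0%, 60.7% and 50.2% of cells without. Irx2 was the reverse, at 28.6%, 28.6%, 30% and 42.9% of Tbr1 cells against 16.4%, 21.1%, 24.4% and 21.4%.

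Between the genotypes, none of the 8 members was called in any cell set. In Meis2 > Pax6 cells the test called 25 of 11800 genes, or 0.212%. In Tbr1 or Lmx1a cells it called 1 of 10192, or 0.00981%, and in Pax6 > Meis2 cells 8 of 13927, or 0.0574%. No member had an unadjusted p under 0.05 in Meis2 > Pax6 cells, where 14.7% of all genes did (edgeR). In each of the other 2 sets 1 member did, Irx3, beside 8.93% and 9.82% of all genes. DESeq2 called 1 member, Irx3, in Pax6 > Meis2 cells. In simulated counts for the Meis2 > Pax6 sums, 45% of genes changed by 1 on the log2 scale and 94% of genes changed by 2 were called, and the changes estimated for the members there were all smaller than 1. Progenitor and glia markers also moved with genotype in these cells, at 586 and 418 CPM in sum in the controls and 921 and 828 CPM in the CKO libraries. So did the 9 granule markers other than Pax6, at 1554 and 1141 against 1793 and 1969 CPM, and the 4 unipolar brush cell markers other than Lmx1a, at 60.5 and 89.0 against 37.1 and 20.8 CPM. Their part in the members' values was not tested.

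Among the POU genes in Meis2 > Pax6 cells, Pou3f2 stood at 424 ± 45.0 CPM in control and 517 ± 102 CPM in CKO libraries (SD, n = 2 each). The difference was within the spread, at 0.33 on the log2 scale (95% interval -0.13 to 0.80, adjusted p = 0.567, edgeR). Pou3f3 was lower in both CKO libraries than in either control, at 194 ± 9.83 against 230.0 ± 7.06 CPM (SD, n = 2 each), at -0.21 on the log2 scale (-0.61 to 0.19, adjusted p = 0.692, edgeR). Its groups were also apart in Pax6 > Meis2 cells, at 98.4 ± 9.23 against 128 ± 14.3 CPM (SD, n = 2 each, or a log2 fold change -0.25, adjusted p = 0.683, edgeR). Groups that do not overlap after TMM scaling were common, in 44.6% of all genes in the first set and 46.5% in the second. In Tbr1 or Lmx1a cells, where 42.6% of genes did not overlap, Pou3f4 stood at 41.1 and 25.9 CPM in controls and 23.8 and 17.2 CPM in CKO libraries (-0.59 on the log2 scale, SE 0.35, adjusted p = 0.591, edgeR). Pou3f1 and Pou3f4 changed by 0.20 (-0.31 to 0.72) and -0.10 (-0.69 to 0.49). Of the Iroquois genes, Irx1 changed by 0.21 (-0.52 to 0.94), Irx2 by 0.17 (-0.29 to 0.64) and Irx5 by -0.06 (-0.69 to 0.56). All these intervals include 0, and none is narrow enough to show that the level was the same. As a ratio, the CKO libraries differed most for Irx1 and Irx3. Irx1 stood at 158 CPM in replicate 1 and 57.9 CPM in replicate 2, on either side of the controls at 94.1 and 102 CPM.

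Irx3 had the largest estimated change of the members in each set, and always downward. In Pax6 > Meis2 cells it stood at 8.56 and 18.6 CPM in controls (100 and 59 UMIs) and at 3.69 and 3.38 CPM in CKO libraries (60 and 99 UMIs), so both CKO libraries lay below both controls. The log2 fold change was -1.74 (SE 0.38, unadjusted p = 0.000996, adjusted p = 0.179, edgeR). DESeq2 gave -1.77 with an adjusted p of 0.0163, edgeR without the low-count filter gave -1.70 with an adjusted p of 3.99e-05, and without control replicate 1 it gave -2.23 with an adjusted p of 0.0392. Without control replicate 2 it was -1.14 (adjusted p = 0.625, edgeR), and among the deeper cells (4000 or more UMIs, mitochondrial share no higher than 5%) it was -1.05 (adjusted p = 1.00, edgeR).

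In Tbr1 or Lmx1a cells Irx3 stood at 19.5 and 38.2 CPM against 12.7 and 2.25 CPM, from 18, 59, 40 and 3 UMIs. The groups did not overlap, and the log2 fold change was -1.73 (SE 0.58, adjusted p = 0.502, edgeR). In this set 49 of 144 and 306 of 511 control cells and 95 of 264 and 28 of 148 CKO cells had Meis2 > Pax6. The 7 excitatory nuclei markers that did not cut the sets summed to 1552 CPM in control replicate 2 and to 943 to 1190 CPM in the other 3 libraries. Progenitor and glia markers summed to 1043 and 568 CPM in the controls and 1493 and 1252 CPM in the CKO libraries. Microglial markers stood at 342 CPM in control replicate 1 and at 7.77 CPM or less in the others, and erythroid markers at 5431 CPM in control replicate 2. The part of these in the Irx3 difference was not tested. The Irx3 difference was called without the low-count filter (-1.67, adjusted p = 0.00818) and lay between -3.63, with CKO replicate 1 left out, and -1.08, with control replicate 2 left out. In Meis2 > Pax6 cells, where Irx3 is most abundant, the groups overlapped: 37.1 and 81.6 CPM against 49.1 and 20.8 CPM. There the log2 fold change was -0.71 (SE 0.42, adjusted p = 0.482, edgeR). It was called without control replicate 1 (-1.15, adjusted p = 0.0266) and was 0.08 without control replicate 2. The estimated difference of the CKO effect between the 2 sides was 1.05 on the log2 scale (SE 0.32, adjusted p = 0.466, edgeR), positive because the estimate was less far below 0 in Meis2 > Pax6 cells. In that test 15 of 13142 genes, or 0.114%, were called. It was called without control replicate 1 (0.99, adjusted p = 0.0331) and without CKO replicate 2 (1.58, adjusted p = 0.00487).

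Other values of the same libraries, chosen after they were seen, are given beside Irx3 in Pax6 > Meis2 cells. Lhx9, a nuclei neuron gene, stood there at 35.5 and 101 CPM in controls and at 33.9 and 16.9 CPM in CKO libraries, and Lhx2, another, at 22.5, 54.2, 25.4 and 17.8 CPM. Meis2 > Pax6 cells made up 20.7%, 59.1%, 28.6% and 10.1% of the kept cells. The 7 excitatory nuclei markers that did not cut the sets summed to 1170 CPM in control replicate 2 and to 739 to 781 CPM in the other 3 libraries in Pax6 > Meis2 cells. Like Irx3, these were highest in control replicate 2. Between the replicate 1 libraries, which were not treated as paired, Irx3 and Lhx9 were lower in the CKO. Lhx2 and the share of Meis2 > Pax6 cells were higher there. The part of these other values in the Irx3 difference was not tested. At an even depth of 2000 UMIs, Irx3 was detected in 3.13% ± 1.46 of control and 0.642% ± 0.0941 of CKO Pax6 > Meis2 cells (SD, n = 2 each; exact permutation test, two-sided, p = 0.33, the smallest this design allows).

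**Figure D4:**
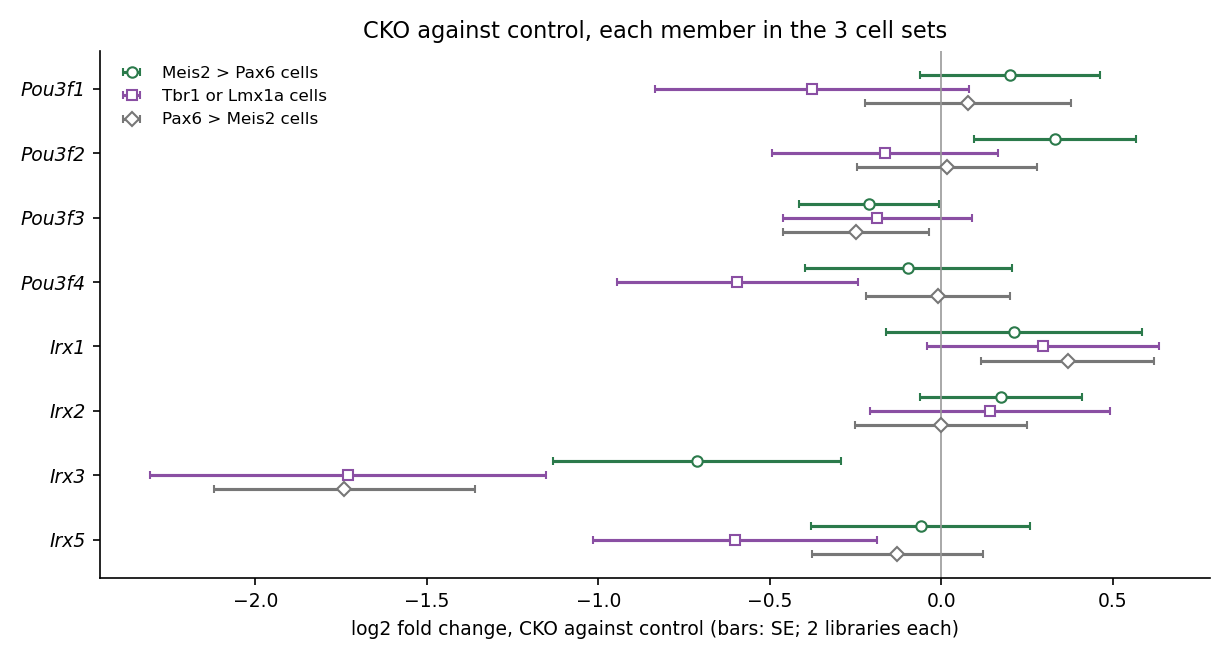
Log2 fold change of each member, CKO against control, with its SE (edgeR, 2 libraries each) in Meis2 > Pax6 (circles), Tbr1 or Lmx1a (squares) and Pax6 > Meis2 cells (diamonds); open points have an adjusted p of 0.05 or more. All points are open, and Irx3 lies farthest from 0, at -0.71, -1.73 and -1.74 in the 3 sets.

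Shares of Meis2 > Pax6 cells with a UMI gave no member that could pass a test with 2 libraries each (exact permutation test, two-sided, smallest p = 0.33). Pou3f3 was detected in 33.8% ± 1.03 of control and 29.3% ± 0.0163 of CKO cells, and Irx2 in 19.1% ± 3.32 and 23.4% ± 1.82 (SD, n = 2 each). The differences depended on the depth read. At 1000 UMIs per cell the means were 19.5% and 19.0% for Pou3f3 and 10.7% and 11.7% for Irx2, and at 3000 UMIs Pou3f2 had 59.0% ± 2.71 in control and 73.8% ± 4.61 in CKO cells (SD, n = 2 each). At 3000 UMIs Pou3f1 had 9.62% ± 1.24 and 13.6% ± 0.254 (SD, n = 2 each), and 119 to 606 cells per library were deep enough. For Irx1 the CKO shares were 24.2% and 9.91%, again on either side of the control shares of 15.8% and 16.6%.

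Several non-coding transcripts lie close to the members. Pantr1, Crnde and Irx3os, each beside a nuclei-side member, were also higher on the nuclei side. AC122898.1 overlaps the whole of Pou3f3 on the same strand. Pantr2 and AC122898.1 by Pou3f3 and Gm30731 by Pou3f2 held 3 to 24 UMIs per library in Meis2 > Pax6 cells. Their changes are not given singly here. Pantr1, a long non-coding RNA 926 bases from Pou3f3 on the other strand, stood at 321, 210, 315 and 327 CPM in Meis2 > Pax6 cells, controls first. It was higher than in Pax6 > Meis2 cells by 1.67 on the log2 scale (SE 0.12, adjusted p = 1.57e-07, edgeR), against 0.85 for Pou3f3. Crnde, 1505 bases from Irx5 on the other strand, was higher by 1.57 (SE 0.22, adjusted p = 5.82e-05), and Irx3os, which overlaps Irx3 on the other strand, by 2.48 (SE 0.63, adjusted p = 0.00484, edgeR). Irx3os held 0 to 21 UMIs per library in Meis2 > Pax6 cells. Gm20554, 256 bases from Irx2 and named here after its value was seen, had a change of 0.33 (SE 0.21, adjusted p = 0.208, edgeR), as small as that of Irx2. Over all 17 tested transcripts within 200 kb of a member, 5 were called higher and 4 lower, against the 25.4% and 26.4% of all genes, with a median log2 fold change of 0.26 (all genes -0.0047). None of the neighbours was called between the genotypes in the 3 sets. Whether the kit's strand was used in counting is not given in the sources used here, so reads of overlapping antisense pairs could not be separated with certainty.

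Of the other POU and Iroquois genes, 8 of 14 were tested between the 2 sides, and 5 were called higher in Meis2 > Pax6 cells and none lower. Among them were Pou6f1 (log2 fold change 1.11), Pou2f2 (1.39), Irx4 (2.61) and Pou2f1 (0.48). Irx4, the third gene of the chromosome 13 cluster, was at 0.509 to 6.79 CPM in Meis2 > Pax6 cells. Of 10 tested SOX genes, the usual partners of POU class 3 factors, 3 were higher in Meis2 > Pax6 cells, namely Sox11 (0.72), Sox21 (2.29) and Sox12 (0.24). Another 3 were lower, namely Sox2 (-1.25), Sox5 (-0.97) and Sox9 (-0.64), of which Sox2 and Sox9 mark progenitors and glia. Between the genotypes, no gene of either list was called in Meis2 > Pax6 cells. The estimated change of Sox2 was 1.35 (adjusted p = 0.187, edgeR). Of 23 tested nuclei and rhombic lip factors, 15 were higher on the nuclei side and 6 lower, and none was called between the genotypes in the 3 sets. Nhlh2, a bHLH factor of young neurons, was called higher in CKO among Meis2 > Pax6 cells without Tbr1 and Lmx1a (1.25 on the log2 scale, SE 0.21, adjusted p = 0.0464, edgeR). It was also called in the test of the difference between the sides (1.20, SE 0.20, adjusted p = 0.0379, edgeR).

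The genes most like each member across Meis2 > Pax6 cells were sought among 8003 genes, by Pearson r of log UMIs at 2000 UMIs per cell, computed within each library and averaged over the 4. Only Pou3f2, Pou3f3, Irx1 and Irx2 had the 100 UMIs per library that this required. For Pou3f2 they included Sox11 (r = 0.205, from 0.103 to 0.293) and Pax5 (0.199). For Pou3f3 they were Rmst (0.129), Pax5 (0.126) and En1 (0.116). For Irx1 and Irx2 no r exceeded 0.121. In sparse counts of cells that share a library such values are descriptions, and none is given a p.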

How the data were processed

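Single-cell RNA libraries of tdT+ cells (droplet 3′ chemistry) from 2 control and 2 CKO pools were analysed. The deposited values are UMI counts per gene and barcode, not normalized, made by the authors with Cell Ranger 5.0.0 on mm10, per the submitters' processing notes. The groups come from the sample titles. The members and gene lists were chosen with earlier results of these data known. Of 32285 gene IDs, 32158 were found in GENCODE M21.

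Cells were filtered and sorted into sets as described above. UMIs were summed per library and set, and tested with edgeR 4.0.16 in R 4.3.3 (filterByExpr, TMM, quasi-likelihood F test, Benjamini-Hochberg over all genes tested). Meis2, Pax6, Tbr1 and Lmx1a were left out of the fits of sets they cut. The SE is the absolute log2 fold change divided by the square root of F, and intervals are 1.96 SE. Probable doublets were kept, and removing the highest doublet scores (0.8% per 1000 cells; 68, 124, 32 and 109 cells) was an alternative. Other alternatives were DESeq2 1.42.0, no low-count filter, the replicate number as a block, intact cells (at least 4000 UMIs and at most 5% mitochondrial), thinning, a margin of 2 UMIs between Meis2 and Pax6, and leaving out each library. Shares and co-detection used cells thinned to 2000 UMIs in Python 3.11.15. Library totals of 14998150 to 33709450 UMIs set the precision, and intervals and limits cover counting error or the spread between these libraries only. Genes were named by a written rule: the 8 members, called genes of 4 lists or else their largest changes, and the 3 genes most like each member. A few genes that this rule names are not reported here. The scripts were tested on simulated counts.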

Additional observations from a re-analysis of the deposited data

How the results depend on the processing

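Of the member results between Meis2 > Pax6 and Pax6 > Meis2 cells, all kept their direction under every alternative run, and only Irx2 lost its call. Counts of genes called between the genotypes moved widely; the cause was not tested. In Meis2 > Pax6 cells 25 genes became 174 with DESeq2, 559 without the low-count filter, 58 with the replicate block, 10 with doublets removed, 41 in intact cells, 72 with the margin of 2 UMIs and 44 to 751 with 1 library left out. In Tbr1 or Lmx1a cells 1 became 13, 256, 0 with the replicate block, 2 in intact cells, 27 in thinned cells, 19 with the margin, 0 in those with Meis2 > Pax6 (added after the data were seen), and 6 to 456 with 1 library left out. In Pax6 > Meis2 cells 8 became 90, 346, 0 with the replicate block, 4 with doublets removed, 1 in intact cells, 3 in thinned cells, 4 with the margin, and 2 to 123. In Meis2 > Pax6 cells without Tbr1 and Lmx1a 34 became 172, 577, 290 with the replicate block, 8 with doublets removed, 85 in intact cells, 8 in thinned cells, 137 with the margin, and 87 to 944. In all kept cells edgeR called 0 genes (1648 at an unadjusted p under 0.05), DESeq2 153, the fit without the filter 768, and 0 to 1398 with 1 library left out. The difference of effects between the sides went from 15 to 83 without the filter, 69 in intact cells, 56 in thinned cells and 28 to 418. Between the sides 6802 became 4427 in thinned cells. Between cells with and without Tbr1 or Lmx1a 297 became 21 in intact cells, 181 in thinned cells, 152 without Eomes cells (added after the data were seen) and 136 to 307.

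The labels do not say whether same-numbered libraries share an experiment, and they were not treated as paired. The correlation of the deviations of same-numbered libraries was -0.21 in Meis2 > Pax6 and -0.16 in Pax6 > Meis2 cells. With 2 libraries in each group, this cannot tell whether they share an experiment. The replicate block changed no member's call.

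Some directions reversed, none of them called. In Meis2 > Pax6 cells these were Pou3f1 (-0.45 intact, -0.18 thinned), Pou3f4 (0.085 thinned) and Irx2 (-0.11 intact). In Tbr1 or Lmx1a cells they were Pou3f3 (0.29 with the margin) and Irx2 (-0.16 thinned, -0.083 with the margin). In Pax6 > Meis2 cells they were Pou3f1 (-0.37 thinned), Pou3f2 (-0.0037 with doublets removed, -0.024 intact), Pou3f4 (0.018 without the filter, 0.077 thinned, 0.13 with the margin), Irx2 (0.0037 with DESeq2, 0.033 without the filter, 0.00027 with the replicate block, 0.018 with doublets removed, 0.084 thinned) and Irx5 (0.12 intact). With against without Tbr1 or Lmx1a, intact cells gave 0.091 for Pou3f1, 0.060 for Pou3f2 and 0.27 for Pou3f3. Shares of Meis2 > Pax6 cells, CKO minus control, reversed for Pou3f1 (4.00 percentage points) and Pou3f3 (2.76) at 3000 UMIs and for Pou3f4 (-0.470) and Irx5 (-0.472) at 1000 UMIs.

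With 1 library left out, log2 fold changes in Meis2 > Pax6 cells ran from -0.27 to 0.53 for Pou3f1, -0.52 to 0.41 for Pou3f4, -0.76 to 0.76 for Irx1, -0.13 to 0.43 for Irx2, -1.58 to 0.077 for Irx3 and -0.46 to 0.56 for Irx5. In Tbr1 or Lmx1a cells they ran from -1.41 to 0.11 for Pou3f1, -0.55 to 0.16 for Pou3f2, -0.43 to 0.094 for Pou3f3, -0.074 to 0.82 for Irx1 and -0.30 to 0.80 for Irx2. In Pax6 > Meis2 cells they ran from -0.26 to 0.42 for Pou3f1, -0.20 to 0.34 for Pou3f2, -0.068 to 0.059 for Pou3f4, -0.0074 to 0.68 for Irx1, -0.24 to 0.28 for Irx2 and -0.33 to 0.090 for Irx5. Shares ran from -1.37 to 0.724 percentage points for Pou3f1, -0.417 to 1.85 for Pou3f4, -6.33 to 7.95 for Irx1, -7.24 to 0.547 for Irx3 and -3.65 to 5.19 for Irx5. A lone library left in a group is assumed to vary like the other group.

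Co-detection ratios that moved were Irx3 with Tbr1 (0.458 at 1000 and 0.412 at 3000 UMIs, from 0.102), Irx5 with Tbr1 (0.506 at 3000, from 0.151), Pou3f2 with Tbr1 (0.352 at 1000, from 0.642) and Irx5 with Pou3f2 (1.08 and 1.37).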
